A study of Homo sapiens with 4 samples.

Results

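The protocadherin gamma (PCDHG) cluster was examined as a window of 250 kb on chromosome 5, chr5:140650001-140900000 in the human build hg19 (GRCh37). The window is defined by its coordinates. It holds 5046 of the 27710999 CpG sites listed on the autosomes and X, and 125 of the 1357123 tiles of 2 kb that had enough reads to be tested. It contains 22 PCDHG genes, of which 12 are PCDHGA, 7 are PCDHGB and 3 are PCDHGC genes, together with the 3 constant exons they share. The pseudogene copies PCDHGB8P and PCDHGB9P lie among them. TAF7, which encodes a subunit of the general transcription factor TFIID, and SLC25A2, which encodes a mitochondrial carrier of ornithine, lie upstream, and the end of DIAPH1, which encodes an actin-nucleating formin, reaches into the downstream edge.

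The data are enzymatic methyl sequencing (EM-seq) libraries of HEK293T cells, a line derived from human embryonic kidney. EM-seq uses enzymes to deaminate cytosines that carry no methyl group, which the sequencer then reports as T, and methylated ones remain C. The 4 libraries were 2 of wild-type cells (WT 1 and WT 2) and 2 of cells lacking the zinc finger gene ZNF274 (ZNF274KO 1 and ZNF274KO 2), with no other treatment in either group. Per the study's methods, the gene was cut with Cas9 and guides on either side of it, and edited cells were selected with puromycin and sorted as single cells. The labels do not say whether libraries of a group came from separate clones or cultures, so p-values measure only the spread between these libraries, and effects of cloning and of the deletion cannot be told apart.

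The CpGs of the ZNF274 gene were covered by 5142 reads in WT 1 and 4265 in WT 2, against 0 in ZNF274KO 1 and 14 in ZNF274KO 2. Summed over CpGs, libraries held between 241598512 and 295114493 reads, with a median of 8 to 10 reads per CpG. A read counts once at each CpG it covers, here and wherever the reads of a region are given. Such counts can therefore exceed the number of separate reads. In the window they held between 42197 and 50628 reads. The methylation level is the share of C among the C and T reads summed over a region. Over all autosomes and X it was 59.3% in WT 1 and 60.4% in WT 2, against 60.2% in ZNF274KO 1 and 58.4% in ZNF274KO 2, and the groups overlapped. A level cannot tell partial methylation in every cell from full methylation in some cells or on some of the chromosome copies.

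Clustered protocadherins are adhesion molecules of the cell surface, best known from neurons, where each cell displays its own combination of them. In the gamma cluster each large variable exon encodes the outer part and the membrane span of a separate protein, has its own promoter, and is spliced to the constant exons, which encode a shared inner end. Most of these promoters carry a conserved element with the core CGCT that the insulator protein CTCF binds, and promoter methylation is known to accompany silence of the gene. ZNF274 is a KRAB zinc finger protein, a family that recruits TRIM28 and the histone methyltransferase SETDB1 to lay down the repressive mark H3K9me3.

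The conserved element gives the promoters a common reference point, since it has a CpG in its core whose reads can be followed from gene to gene. The letters GNCGCTGT were searched on both strands from 250 bases before to 50 bases after each transcription start, a motif chosen after the values had been seen. They occurred in 18 of the 22 PCDHG genes and in 1073 of 19756 promoters of the genome (5.43%). A match stands for the element below, and whether each match is the conserved element was not tested. Stretches of 30 bases around the match are shown for 6 genes that differ in the reads at this CpG, with the match in capitals. All are on the plus strand of GRCh37.
PCDHGB1: caacctctgggcGCCGCTGTcgaccaaaag
PCDHGA4: aagactctgggtGTCGCTGTtcaccaatca
PCDHGA5: aggactctgagtGTCGCTGTtgaccaaagt
PCDHGA9: aggactctgagcGCCGCTGTtgatcaactc
PCDHGA12: aggactctgagcGCCGCTGTtcaccaatcg
PCDHGC4: ctgagcccgggaGCCGCTGTctgccaatcg
In the order shown, these stretches lie at chr5:140729594-140729623, chr5:140734529-140734558, chr5:140743676-140743705, chr5:140782283-140782312, chr5:140810095-140810124 and chr5:140864521-140864550. Over the 18 genes the CpG of the match lay between 132 bases (PCDHGA4) and 266 bases (PCDHGA1) before the coding start.

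Across the window the level was 54.8% in WT 1 and 55.1% in WT 2, against 69.3% in ZNF274KO 1 and 63.0% in ZNF274KO 2. Both ZNF274KO libraries exceeded both WT libraries, and they differed from each other by more than the WT libraries did. The group means differed by 11.2 percentage points, from 54.9% ± 0.250 to 66.1% ± 4.45 (SD, n = 2). The exact permutation test gave p = 0.333, which is the smallest that 2 libraries against 2 allow in a two-sided test, so no level of a summed region can pass 0.05. Without ZNF274KO 1 the difference was 8.05 points and without ZNF274KO 2 it was 14.3.

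Single tiles were compared with edgeR's quasi-likelihood test on the methylated and unmethylated reads, adjusted by Benjamini-Hochberg over all 1357123 tiles. In the window 36 of 125 tiles were called higher in ZNF274KO (28.8%) and 0 lower, where 0.433% of all tiles were called higher and 0.0195% lower. An unadjusted p under 0.05 was found for 82 tiles, where 6.31% of all tiles had one. With limma on log2 ratios the count of calls was 7, all of them among the 36. Over all tiles limma called 1289 higher and 9 lower. Both ZNF274KO libraries exceeded both WT libraries in 99 tiles, where 14.6% of all tiles did so. The median difference was 11.5 points over the 125 tiles and -0.48 over all tiles. The calls were spread unevenly. Before the TAF7 gene 20 of 24 tiles were called higher, and between TAF7 and PCDHGA1 3 of 6 were. From PCDHGA1 to the first constant exon 13 of 82 were, and from there on 0 of 13 were. Both ZNF274KO libraries exceeded both WT libraries in 22, 4, 67 and 6 of these tiles, in the order given.

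**Figure D1:**
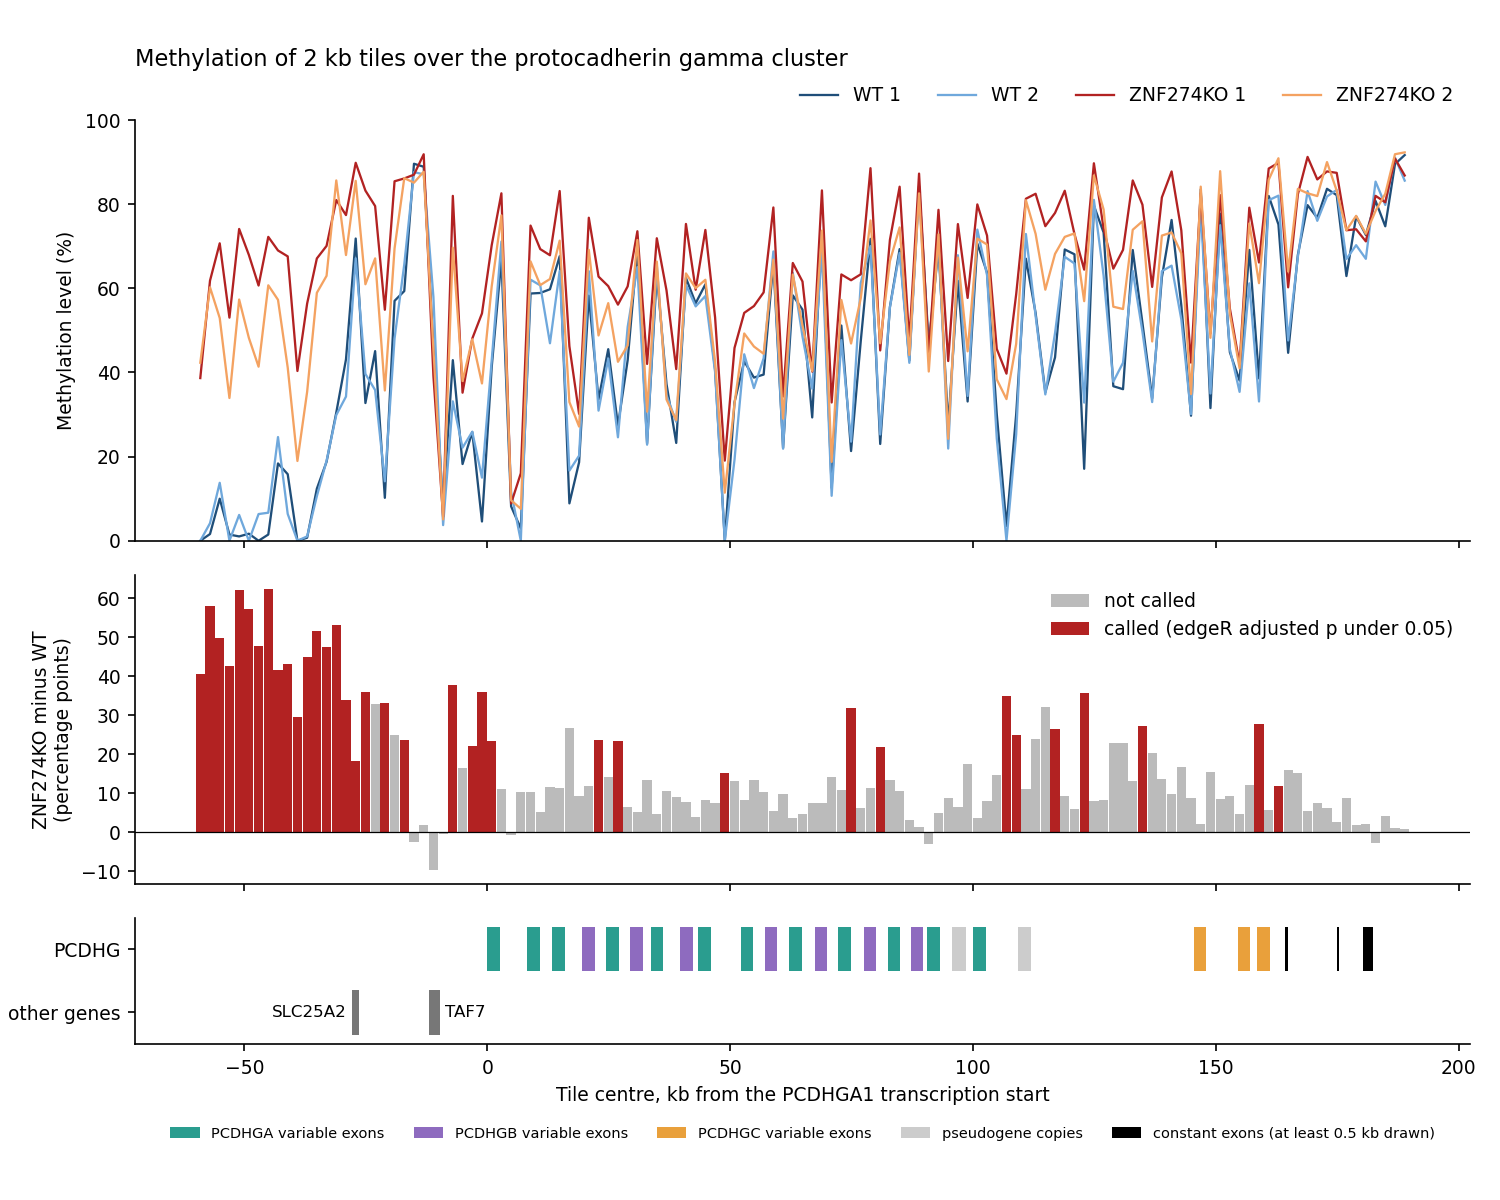
Methylation level of the 125 tiles of 2 kb in each library (top, percent), the difference of group means in percentage points with called tiles in red (middle), and the exons of the genes (bottom), against distance in kb from the PCDHGA1 transcription start. The 4 lines run apart in WT and ZNF274KO over the left flank, where differences reach 62.4 points, and come closer over the variable exons. They are still apart in the tile that holds constant exon 1 and meet in the tiles that hold constant exons 2 and 3.

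The tiles that rose most lay outside the PCDHG genes, in the flank toward the beta cluster. From the left edge of the window 18 tiles in a row were called higher (chr5:140650001-140686000), by 18.2 to 62.4 points. WT means were at most 69.5%, with 13 of the 18 under 20%, and ZNF274KO means were between 29.7% and 87.7%. The tile with the largest difference, chr5:140664001-140666000 with 14 CpGs, had levels of 1.48% in WT 1 and 6.67% in WT 2, against 72.2% in ZNF274KO 1 and 60.7% in ZNF274KO 2. The difference was 62.4 points (edgeR adjusted p = 3.1e-07), with 84 to 135 reads per library, and the groups were far apart.

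The next largest was chr5:140658001-140660000, with 11 CpGs and levels of 1.03%, 6.14%, 74.1% and 57.3% in the same order of libraries. It rose by 62.1 points (edgeR adjusted p = 1.4e-06). The following tile by size, chr5:140652001-140654000, also had 11 CpGs and levels of 1.6%, 4.17%, 61.8% and 60.2%. It rose by 58.1 points (edgeR adjusted p = 3.3e-07). In all 3 tiles the WT libraries were almost free of methylation and the ZNF274KO libraries were methylated in most reads. With limma the adjusted p was 0.0593 for the first and 0.0691 for the second of these tiles.

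Summed over the flank before TAF7, leaving out exons (389 CpGs), the level was 32.1% in WT 1 and 31.0% in WT 2, against 75.2% in ZNF274KO 1 and 63.7% in ZNF274KO 2, a difference of 37.9 points. The flank between TAF7 and the first PCDHG promoter (123 CpGs) had 21.0%, 18.2%, 37.8% and 37.8%, a difference of 18.2 points. The gap between these differences, 19.8 points, was larger than the spread within either group, with the exact permutation p at its smallest value of 0.333. Over the whole flank 60.3% and 59.0% of CpGs covered at least 5 times in every library had a level under 20% in WT 1 and WT 2. In ZNF274KO 1 and ZNF274KO 2 the shares were 16.03% and 25.4%.

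SLC25A2 and TAF7 lie in this flank. SLC25A2 has a single exon (chr5:140682202-140683616, 50 CpGs), at 66.2% in WT 1 and 57.9% in WT 2, against 87.7% in ZNF274KO 1 and 83.7% in ZNF274KO 2. The groups did not overlap and the tile that holds it rose by 18.2 points (edgeR adjusted p = 0.00055, and 0.38 with limma). The 1 kb before TAF7 (chr5:140700352-140701351, 34 CpGs) had 12.5%, 5.58%, 7.18% and 6.71% in the same order, and the groups overlapped. The tile over the exon of TAF7, chr5:140698001-140700000, had the largest difference downward of the window, from 51.9% ± 8.52 to 42.4% ± 4.47 (SD, n = 2; edgeR adjusted p = 0.83), which did not pass the threshold. Its difference was -15.6 points without WT 1 and -3.55 without WT 2. The other 2 tiles with the largest downward differences, chr5:140800001-140802000 and chr5:140892001-140894000, differed by -2.93 and -2.88 points, with overlapping groups and edgeR adjusted p of 0.96 and 0.94.

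Within the gene array, sequence was divided so that each base counted once. The variable exons (2749 CpGs) had 62.3% in WT 1 and 61.8% in WT 2, against 73.7% in ZNF274KO 1 and 66.3% in ZNF274KO 2. The difference was 7.94 points, from 62.1% ± 0.373 to 70.0% ± 5.19 (SD, n = 2), and 4.27 points without ZNF274KO 1. The spacers between variable exons (698 CpGs) had 42.1%, 41.9%, 61.2% and 53.9%, a difference of 15.6 points from 42.0% ± 0.117 to 57.6% ± 5.16. Both kinds were higher in both ZNF274KO libraries. The difference of the spacers exceeded that of the exons by 7.66 points. Spacers minus exons came to -20.3 and -19.9 points in the WT libraries and -12.4 and -12.4 in the ZNF274KO libraries, so this gap was large against the spread within groups (exact permutation p = 0.333, the smallest possible).

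Promoters, taken as the 1 kb before each transcription start without exon bases (250 CpGs), were the least methylated of the 9 kinds in every library together with the flank between TAF7 and the first of them. They had 21.2% in WT 1 and 23.6% in WT 2, against 33.7% in ZNF274KO 1 and 25.1% in ZNF274KO 2, a difference of 6.99 points from 22.4% ± 1.72 to 29.4% ± 6.09 (SD, n = 2). ZNF274KO 2 lay only slightly above WT 2, and without ZNF274KO 1 the difference was 2.68 points. The promoter difference was smaller than that of the variable exons by 0.943 points, which was within the spread between libraries (exact permutation p = 0.667). The pseudogene copies (204 CpGs), which have a variable exon-like sequence and encode no protein, had 56.5%, 61.3%, 74.7% and 68.9%, a difference of 12.9 points. PCDHGB8P had 53.5%, 58.2%, 71.2% and 62.0%, a difference of 10.7 points, with ZNF274KO 1 the highest library. PCDHGB9P had 60.2%, 65.2%, 79.1% and 77.6%, a difference of 15.7.

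**Figure D2:**
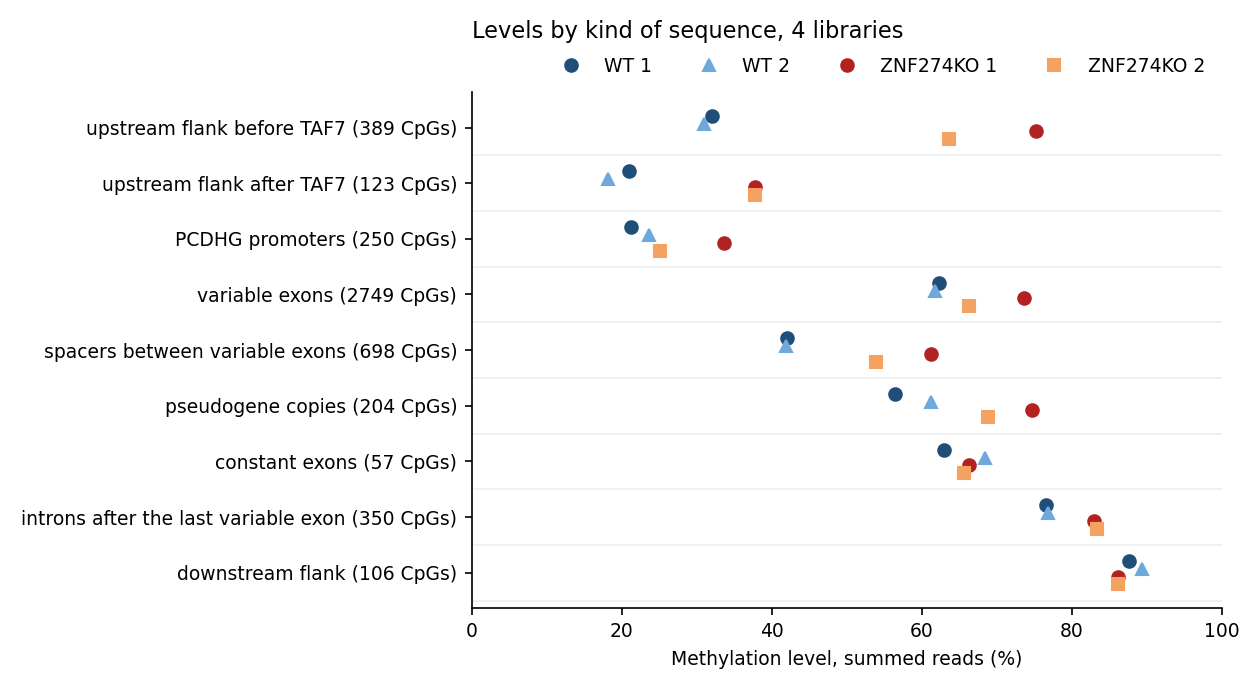
Methylation level in percent, from summed reads, of 9 kinds of sequence in the window, with a point for each library. Both ZNF274KO points lie above both WT points in 7 of the 9 kinds, with the widest gap in the flank before TAF7, while the constant exons overlap and the downstream flank is lower in ZNF274KO.

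Summed together, the constant exons, which encode the shared inner end of all PCDHG proteins, differed little between the groups. Over their 57 CpGs the level was 62.9% in WT 1 and 68.4% in WT 2, against 66.4% in ZNF274KO 1 and 65.7% in ZNF274KO 2. The difference was 0.361 points and the groups overlapped. The 3 exons had very different levels. Constant exon 1 (chr5:140874374-140874432, 59 bases, 5 CpGs) had 9.30%, 11.8%, 37.5% and 0% in the same order, on 43, 17, 64 and 9 reads summed over its CpGs. As separate reads, 0 of 9 would allow a level of up to 33.3%, and fewer separate reads would allow more. Constant exon 2 (chr5:140884960-140885048, 4 CpGs) was at 93.8%, 100%, 100% and 95.7%. Constant exon 3 (chr5:140890514-140892542, 48 CpGs), most of which is 3′ untranslated, was at 64.9%, 66.9%, 69.3% and 65.3%. Its coding part (10 CpGs) had 77.8%, 77.9%, 78% and 87.7%, a difference of 4.99 points, with ZNF274KO 1 close to the WT libraries. The 3 exons alone differed by 8.22, 0.951 and 1.41 points, each more than the summed 0.361. The sum also depends on how reads were shared among the exons. Constant exon 3 alone had enough reads and CpGs for the edgeR test.

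The introns after the last variable exon, which surround the constant exons, differed from them. Their level was 76.6% in WT 1 and 76.8% in WT 2, against 82.9% in ZNF274KO 1 and 83.4% in ZNF274KO 2 over 350 CpGs. The difference was 6.47 points, from 76.7% ± 0.161 to 83.2% ± 0.345 (SD, n = 2), with the ZNF274KO libraries close together. A tile in this intron just before constant exon 1, chr5:140872001-140874000, rose by 11.8 points (edgeR adjusted p = 0.019). It was not called without WT 1 (edgeR adjusted p = 0.21), without ZNF274KO 1 (0.094), without ZNF274KO 2 (0.16) or with limma (0.55). Past the last constant exon, the summed downstream flank (106 CpGs) went the other way, at 87.7% and 89.4% in WT against 86.2% and 86.2% in ZNF274KO, a difference of -2.35 points. Of the tiles that reach past this exon, chr5:140892001-140894000 differed by -2.88 points and those after it by 4.19, 1.07 and 0.930. None of these tiles was called. The exons of DIAPH1 in the window (15 CpGs) had between 86.5% and 91.3% in all libraries.

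The 22 variable exons were then compared gene by gene. Each exon was 2563 to 2677 bases long and held 76 to 174 CpGs, covered by 678 to 1874 reads in a library. The difference was above 0 in all 22, with a median of 8.11 points, where the median over all 76596 exons tested was -0.31. Both ZNF274KO libraries exceeded both WT libraries in 17 of the 22 exons, where 12.1% of all exons did so. None of them passed the edgeR test after adjustment over all exons, where 0.103% of all exons were called higher and 0.0131% lower. The lowest adjusted p was 0.29, and 10 of the 22 had an unadjusted p under 0.05, where 5.40% of all exons did. With limma, 0 were called and 1 had an unadjusted p under 0.05. Of all 76596 exons limma called 0, and 4725 had such a p. Summed over the 22 exons, the difference was 4.27 points without ZNF274KO 1 and 11.6 without ZNF274KO 2.

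The exon of PCDHGC5 had the largest difference. It lies at chr5:140868648-140871267 and holds 76 CpGs, the fewest of the 22 exons. Its level was 58.7% in WT 1 and 58.1% in WT 2, against 80.02% in ZNF274KO 1 and 73.4% in ZNF274KO 2. The WT libraries were almost equal and the groups were well apart. The difference was 18.3 points, from 58.4% ± 0.385 to 76.7% ± 4.67 (SD, n = 2; edgeR adjusted p = 0.29). PCDHGC5 belongs to the C-type genes, which are known to be expressed more uniformly among neurons than the A and B types.

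PCDHGA4, whose exon lies at chr5:140734588-140737188, followed. Its level was 39.2% in WT 1 and 38.5% in WT 2, against 60.1% in ZNF274KO 1 and 51.7% in ZNF274KO 2, a difference of 17.1 points (edgeR adjusted p = 0.53). This was the exon with the lowest WT level of the 22. PCDHGA9 (chr5:140782345-140784943) had 48.4%, 44.7%, 67.5% and 57.1% in the same order, a difference of 15.7 points (edgeR adjusted p = 0.73). In both genes the groups did not overlap and ZNF274KO 1 was the highest library. PCDHGA1, at the upstream end of the array, had 61.4%, 66.4%, 79.8% and 72.6%, a difference of 12.3 points. PCDHGA10 had 66.0%, 64.3%, 80.4% and 72.7%, a difference of 11.4, and ZNF274KO 1 was again the highest library in both.

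At the other end of the order, PCDHGB7 (chr5:140797244-140799841) had 73.2% in WT 1 and 74.6% in WT 2, against 76.7% in ZNF274KO 1 and 73.7% in ZNF274KO 2. The difference was 1.33 points and the groups overlapped. PCDHGA11, its neighbour, had 58.1%, 58.6%, 63.96% and 57.0%, a difference of 2.12 points, again with overlap. The exons of PCDHGC3 and PCDHGA12 differed by 3.18 and 4.01 points. That of PCDHGC3 differed by 0.590 points without WT 2 and 5.78 without WT 1, and that of PCDHGA12 by 0.717 without ZNF274KO 1 and 7.30 without ZNF274KO 2. PCDHGA12 holds 174 CpGs, the most of any variable exon, and PCDHGB7 had the highest WT level. Neighbours in the order between PCDHGA12 and PCDHGC5 differed from each other by less than the spread between the ZNF274KO libraries, which reached an SD of 9.45 points in PCDHGB4.

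Exons with fewer CpGs tended to differ more. Across the 22 exons Spearman's rho between the number of CpGs and the difference was -0.68. Between the WT level and the difference it was -0.52, a value that the shared WT levels can themselves push downward. The exons share the same 4 libraries, so these values describe the exons and are not a test. PCDHGC4 stood against the first trend, with 89 CpGs and a difference of 8.22 points. By type, the PCDHGA exons differed by 8.49 points, the PCDHGB exons by 6.77 and the PCDHGC exons by 8.26. The PCDHGA difference exceeded the PCDHGB difference by 1.72 points (exact permutation p = 0.333, the smallest possible). Promoters had another order, with differences of 11.8 points for PCDHGB, 5.38 for PCDHGA and 2.197 for PCDHGC, and the groups overlapped in the last. The order of the exons was not stable. With ZNF274KO 1 left out, they differed by 4.45 (PCDHGA), 2.43 (PCDHGB) and 8.32 points (PCDHGC). The promoters then differed by 7.28 (PCDHGB), 1.84 (PCDHGA) and -3.54 points (PCDHGC). Their order was the same with each library left out, but the size of their differences was not.

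**Figure D3:**
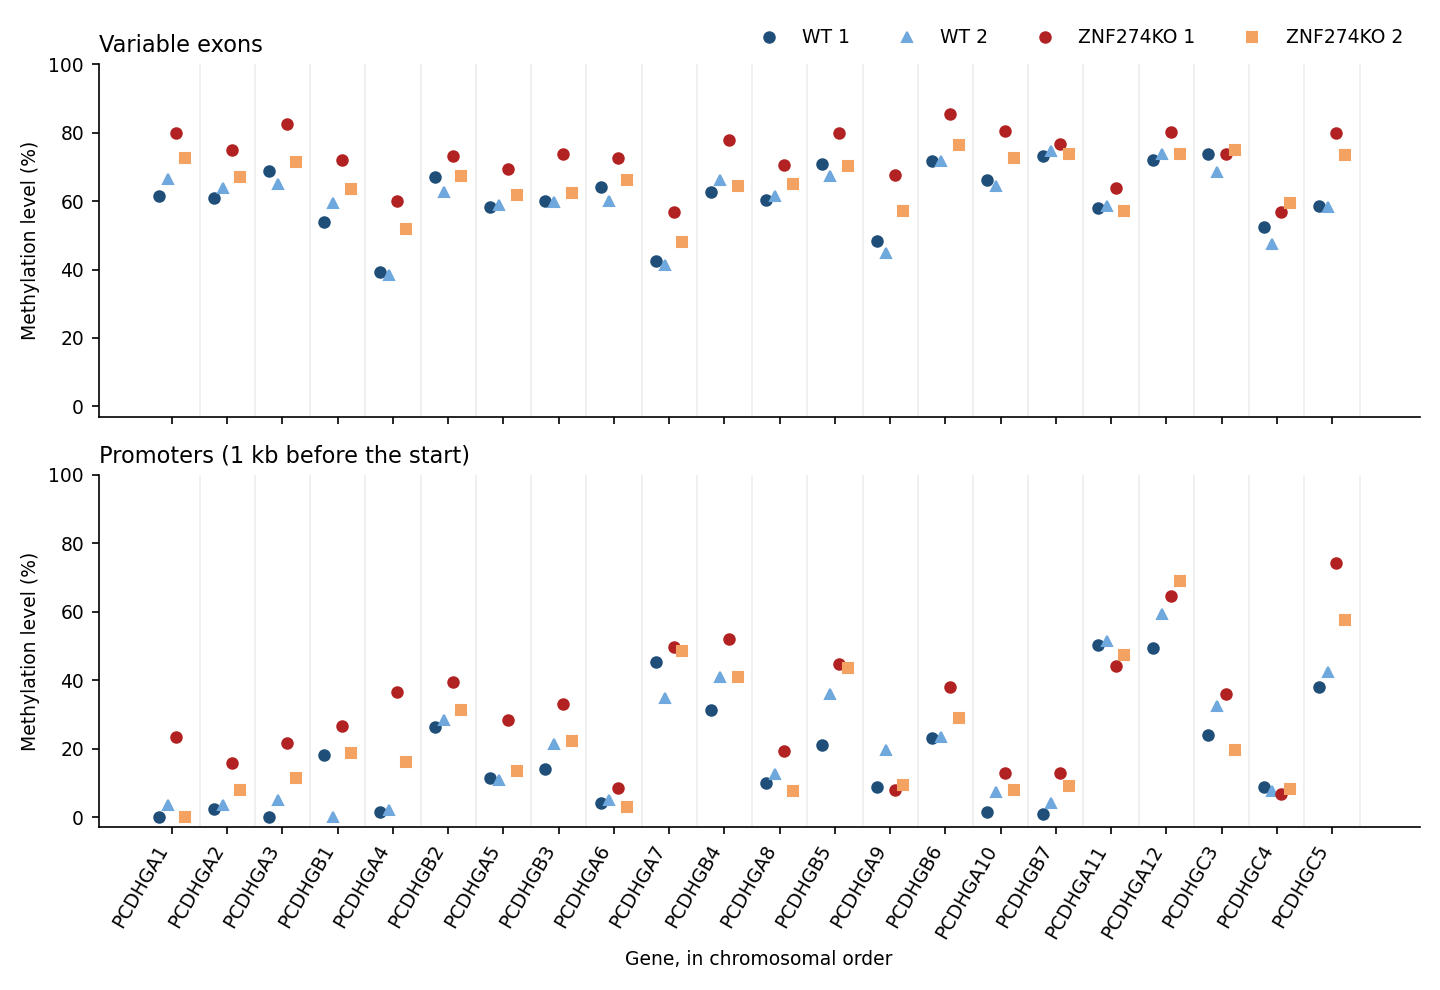
Methylation level in percent of the 22 variable exons (top) and of the 1 kb promoters (bottom), with a point for each library and genes in chromosomal order. Both ZNF274KO points lie above both WT points in 17 exons, most promoters lie well below their exon, and ZNF274KO 1 is above ZNF274KO 2 in 20 exons.

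Promoters held few CpGs, from 4 in PCDHGA1, too few for a test, to 25 in PCDHGC4. Over the 21 promoters tested the median difference was 9.03 points, where it was -0.12 over all 18528 promoters tested. Both ZNF274KO libraries were above both WT libraries in 15 and below them in 1, where 15.0% of all promoters had them above. No PCDHG promoter passed the edgeR test, where 0.0594% of all promoters were called higher and 0.0162% lower. The lowest adjusted p was 0.17. Of the 21, 6 had an unadjusted p under 0.05, where 5.89% of all promoters did. With limma 0 were called and 5 had an unadjusted p under 0.05. Of all 18528 promoters limma called 0, and 1098 had such a p. Summed over the PCDHG promoters, the difference was 2.68 points without ZNF274KO 1. In fits without 1 WT library the spread came from the ZNF274KO libraries, and the lone WT library was assumed to vary like them. Promoter calls from those fits are therefore not given.

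The promoter of PCDHGC5 (chr5:140867648-140868647, 8 CpGs) had the largest difference, as its exon did. Its level was 38.03% in WT 1 and 42.4% in WT 2, against 74.1% in ZNF274KO 1 and 57.4% in ZNF274KO 2. The difference was 25.5 points (edgeR adjusted p = 0.67), and the groups did not overlap. The promoter of PCDHGA4 (chr5:140733588-140734587, 5 CpGs) had 1.39%, 1.92%, 36.5% and 16.1% in the same order, a difference of 24.6 points (edgeR adjusted p = 0.17). It was almost unmethylated in WT and partly methylated in both ZNF274KO libraries, on 52 to 72 reads per library. The promoter of PCDHGB5 differed by 15.7 points, that of PCDHGA3 by 13.9 and that of PCDHGB1 by 13.7. Each of these moved when 1 library was left out. The PCDHGB5 difference was 8.21 points without WT 1, that of PCDHGA3 was 8.83 without ZNF274KO 1, and that of PCDHGB1 was 4.73 without WT 2 and 22.7 without WT 1. Without ZNF274KO 1 the PCDHGA4 promoter differed by 14.4 points and that of PCDHGC5 by 17.2.

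A few promoters had differences at or below 0. PCDHGC4 had 8.89% in WT 1 and 7.602% in WT 2, against 6.85% in ZNF274KO 1 and 8.29% in ZNF274KO 2 over its 25 CpGs, so it was weakly methylated in every library. PCDHGC3 had 23.9%, 32.5%, 36.1% and 19.6%, and the difference between the ZNF274KO libraries exceeded any between groups. PCDHGA9 had 8.65%, 19.6%, 7.78% and 9.38%, a difference of -5.57 points with overlapping groups, which was -0.08 without WT 2 and -11.1 without WT 1. PCDHGA11 had 50.2%, 51.3%, 44.1% and 47.3%, the only promoter of the 21 with both ZNF274KO libraries below both WT libraries. Across the 21 genes Spearman's rho between the differences of exon and promoter was 0.32, again a description over genes that share the same libraries.

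Summed over the 18 genes with a match, the CpG inside the match was less methylated than the other promoter CpGs. It had 10.6% in WT 1 and 14.8% in WT 2, against 15.1% in ZNF274KO 1 and 11.3% in ZNF274KO 2, from 149 to 179 reads. The groups overlapped. The other promoter CpGs of the same genes had 20.3%, 21.8%, 34.4% and 25.02%, and the CpGs within 100 bases of it 20.9%, 25.6%, 31.8% and 27.1%. Both of these surroundings were higher in both ZNF274KO libraries. The order did not hold in every gene. The WT mean at the element exceeded that of the promoter in 4 of the 18 genes (PCDHGA7, PCDHGA9, PCDHGA12 and PCDHGC3), and the ZNF274KO mean did in 3 (PCDHGA5, PCDHGA12 and PCDHGC3). In PCDHGA12 the match lies after the transcription start and so outside the 1 kb promoter. These values are descriptions, since the motif was chosen with the levels known.

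In 8 of the 18 genes no methylated read was seen at this CpG in any library. In PCDHGA4 these were 0 of 36 reads, which allows a share of up to 8.33%, while the promoter around it reached 36.5% in ZNF274KO 1. In PCDHGB1 they were 0 of 32 reads, which allows up to 9.38%, and in PCDHGC4 0 of 25, which allows up to 12%. Such limits cover counting error only. PCDHGA5 differed, with 5 of 11 reads in ZNF274KO 1 and 3 of 8 in ZNF274KO 2 but 0 of 9 in WT 1 and 0 of 7 in WT 2. The 0 of 16 WT reads together allow a share of up to 18.8%. Methylated reads were also seen in ZNF274KO alone in PCDHGA3 (1 of 15) and PCDHGB5 (2 of 22). They were seen in WT alone in PCDHGA6 (1 of 19) and PCDHGB6 (2 of 15). PCDHGA9 went the other way, with 5 of 15, 3 of 8, 0 of 13 and 1 of 7. PCDHGA12 was methylated in both groups, with 6 of 7, 5 of 7, 8 of 12 and 5 of 7.

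**Figure D4:**
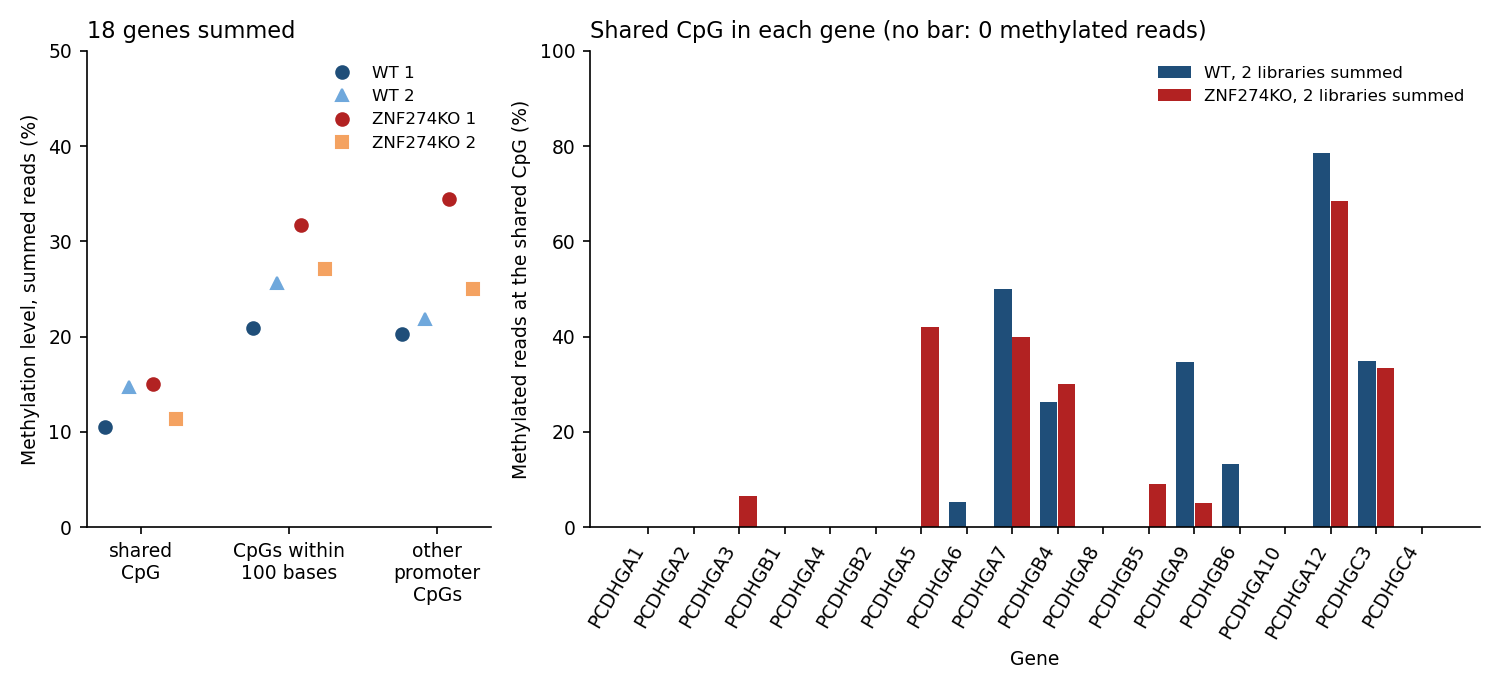
Left, level in percent by library of the CpG shared by the matches, of CpGs within 100 bases of it and of the other promoter CpGs, with 18 genes summed. Right, percent of methylated reads at the shared CpG in each gene, with the 2 libraries of a group summed. No bar is seen in either group in 8 genes. PCDHGA3, PCDHGA5 and PCDHGB5 have one in ZNF274KO alone, and PCDHGA6 and PCDHGB6 in WT alone.

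Aligned at the coding start, the genes showed where along the promoter and exon the difference lay. CpGs were summed in bins of 250 bases over the 22 genes, each CpG counted once, at the next start if that was within 1500 bases and otherwise at the previous one. The level was lowest between 500 and 251 bases before the coding start, at 17.0% in WT 1 and 23.1% in WT 2, against 27.3% in ZNF274KO 1 and 19.9% in ZNF274KO 2, where the groups overlapped. From 1250 to 1001 bases before it, near the far end of the 1 kb promoters, it was 22.5%, 23.4%, 50% and 38.2%, a difference of 21.2 points and the largest of the 20 bins. Inside the exon the level peaked from base 1500 to 1749 at 78.7% ± 0.629 in WT and 84.7% ± 4.32 in ZNF274KO (SD, n = 2). That bin held 432 CpGs, the most of any bin, and differed by 5.92 points.

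Other stretches of the exon had lower levels and larger differences. From base 1000 to 1249 the means were 40.1% ± 0.817 and 53.4% ± 8.24, with 117 CpGs and a difference of 13.3 points, and from base 1250 to 1499 the difference was 14.1. From base 2250 to 2499, at the end of the exon, it was 15.2 points, from 52.2% ± 1.21 to 67.4% ± 9.50. The ZNF274KO libraries were unequal in these bins. ZNF274KO 1 and ZNF274KO 2 had 59.2% and 47.6% from base 1000, and 74.2% and 60.7% from base 2250. Both ZNF274KO libraries were above both WT libraries in 18 of the 20 bins, and the exceptions were the bins from 750 to 251 bases before the coding start.

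**Figure D5:**
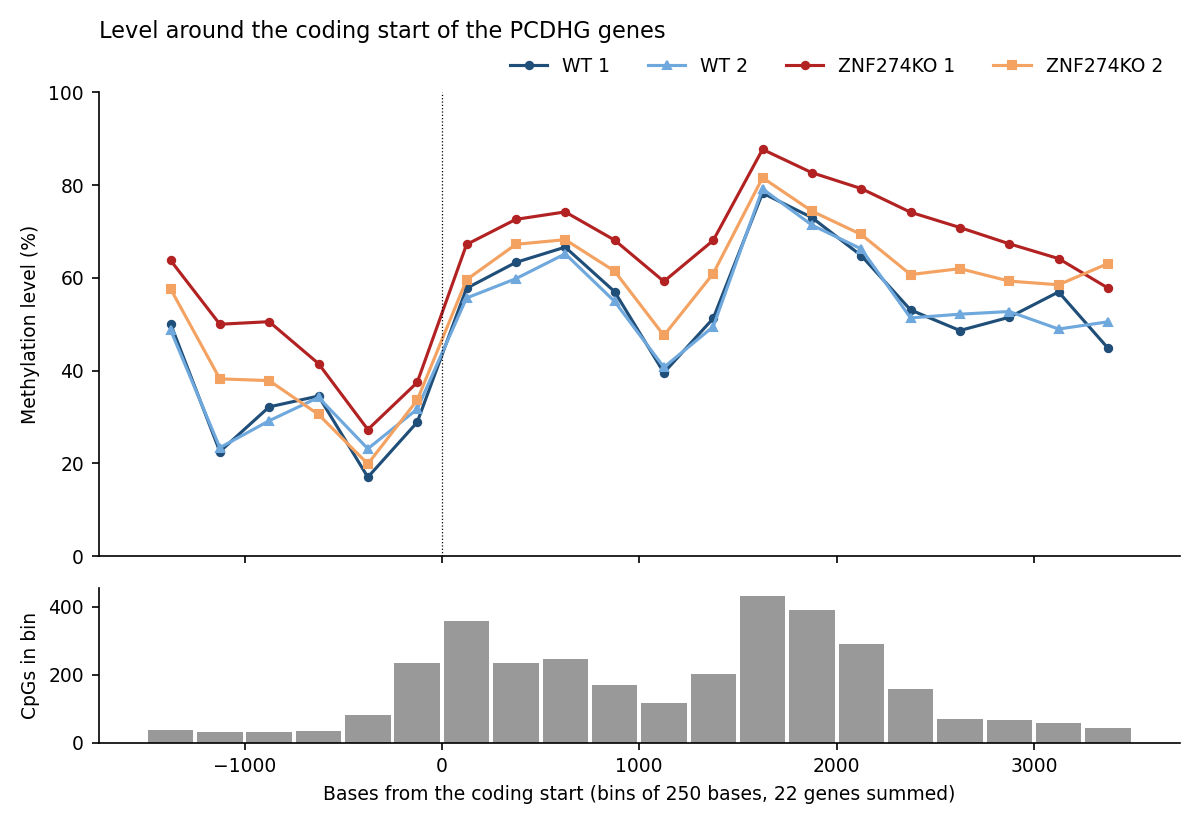
Methylation level in percent of each library in bins of 250 bases around the coding start, summed over 22 genes (top), and the number of CpGs in each bin (bottom). All lines dip before the coding start, where the libraries of the groups overlap, and peak from base 1500 on, and the ZNF274KO lines lie farthest above the WT lines at 1250 to 1001 bases before the start.

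Tiles showed the same relation to CpG number. From PCDHGA1 to the first constant exon, the 39 tiles with under 40 CpGs had a median difference of 14.7 points. Of these, 10 were called higher, and both ZNF274KO libraries exceeded both WT libraries in 34. The 43 tiles with at least 40 CpGs had a median difference of 7.94 points. Of these, 3 were called higher, and both ZNF274KO libraries exceeded both WT libraries in 33. Over all tiles tested, 0.424% of those with under 40 CpGs and 0.537% of the others were called higher. The sparse tiles also started lower, with a median WT level of 33.4% against 60.4%, so CpG number and starting level cannot be told apart here. Over the whole window 17 of 23 tiles with a WT level under 20% were called higher. So were 16 of 56 between 20% and 60%, and 3 of 46 at or above 60%. The shares of all tiles called higher were 1.45%, 0.480% and 0.0231% in these ranges of WT level, so calls were more frequent at low WT levels over the genome as well. Among the tiles of the array, chr5:140816001-140818000 between PCDHGA12 and PCDHGC3 had 3.497% in WT 1 and 0% in WT 2, against 39.7% in ZNF274KO 1 and 33.7% in ZNF274KO 2. It rose by 34.9 points (edgeR adjusted p = 3.4e-05, and 0.11 with limma), on 11 CpGs, with the groups far apart. The 0% of WT 2 is 0 of 99 reads summed over these CpGs, which would allow up to 3.03% if all were separate reads.

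Weakly methylated single CpGs were fewer in ZNF274KO. Of 2169 CpGs of variable exons covered at least 5 times in every library, 17.8% in WT 1 and 18.8% in WT 2 had a level under 20%, against 5.86% in ZNF274KO 1 and 11.8% in ZNF274KO 2. Levels over 80% were found at 43.2%, 41.9%, 53.4% and 45.5% of them. In the spacers (512 CpGs) the share under 20% was 42.2%, 41.0%, 17.97% and 28.9%. In the promoters (218 CpGs) it was 63.8%, 59.2%, 49.1% and 61.0%, and the groups overlapped.

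The ZNF274KO libraries were not equal. ZNF274KO 1 was above ZNF274KO 2 in 102 of the 125 tiles, in 20 of the 22 variable exons and in 17 of the 21 promoters. Its level over all autosomes and X was also the higher one, at 60.2% against 58.4%, and the part of that in the window's difference was not tested. After subtracting each library's level over autosomes and X the window differed by 11.7 points. From constant exon 1 on, ZNF274KO 1 was the higher of the pair in 4 of 13 tiles. Many variable exons resemble each other, and reads could be placed on the wrong copy. Of the 5046 CpGs 3896 (77.2%) lie in a stretch of 50 bases that stays unique in the genome after conversion. On those alone the variable exons differed by 8.53 points and the promoters by 5.87.

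The neighbouring clusters gave the closest comparison, as the same kind of exons in the same libraries. The PCDHB genes encode each protein in a single exon with no constant exons. Their 16 first exons summed to 52.0% in WT 1 and 53.2% in WT 2, against 72.6% in ZNF274KO 1 and 61.6% in ZNF274KO 2, a difference of 14.5 points, against 7.94 for the PCDHG variable exons. The gap of 6.57 points had the smallest possible exact permutation p of 0.333. All 16 PCDHB exons had both ZNF274KO libraries above both WT libraries and an unadjusted edgeR p under 0.05, where 12.1% and 5.40% of all exons did, and 0 were called. Without ZNF274KO 1 the PCDHB difference was 9.03 points. The PCDHA exons (15), which like the gamma exons share constant exons, had 69.8%, 72.0%, 78.2% and 71.2% in the same order, so that ZNF274KO 2 lay between the WT libraries. They differed by 3.77 points, and by 0.269 points without ZNF274KO 1, with 7 of 15 having both ZNF274KO libraries above both WT libraries, against the same 12.1% of all exons. Their difference was 4.17 points smaller than that of PCDHG (exact permutation p = 0.333).

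Among promoters, 1 of 16 PCDHB promoters was called, that of PCDHB16. It had 1.79% in WT 1 and 1.35% in WT 2, against 36.0% in ZNF274KO 1 and 19.5% in ZNF274KO 2 (edgeR adjusted p = 0.031). It was not called without ZNF274KO 1 (edgeR adjusted p = 0.54), without ZNF274KO 2 (0.078), with bias-adjusted deviances (0.14) or with limma (0.31). Of the PCDHA and PCDHG promoters 0 of 15 and 0 of 21 were, where 0.0594% of all promoters were called higher and 0.0162% lower. An unadjusted edgeR p under 0.05 was found for 10 of 16 PCDHB, 3 of 15 PCDHA and 6 of 21 PCDHG promoters, where 5.89% of all promoters had one. The non-clustered protocadherins encode related proteins but lie outside these clusters. Of their 11 first exons 0 were called and 3 had an unadjusted edgeR p under 0.05, where 0.103% of all exons were called higher and 5.40% had such a p, with a median difference of -0.11 points, and of 10 promoters tested 0 were called, with 0 under 0.05 unadjusted, where 5.89% of all promoters were. Genes for regulators of protocadherin chromatin, including CTCF, the cohesin subunit RAD21, SMCHD1, SETDB1, TRIM28 and the DNA methyltransferases, gave 0 calls among 18 first exons and 0 among 18 promoters, with 4 and 0 under 0.05 unadjusted, against the same 5.40% and 5.89%. Summed over the 18 genes, the first exons had a WT level of 1.03% ± 0.227 and a ZNF274KO level of 1.18% ± 0.626 (SD, n = 2), and some single exons lay well above these sums.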

How the data were processed

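The authors processed 2 WT and 2 ZNF274KO EM-seq libraries of HEK293T cells with Msuite2 and the HISAT2 aligner on hg19 with ribosomal DNA added, and deposited for each library the counts of C and T reads at every CpG on either strand. Further filters are not given in the sources used here.

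Both strands were summed. Level was C reads over C and T reads. Gene models were the longest coding transcripts of GENCODE release 44 on GRCh37. All autosomal and X sites fell on CG of that build. A class took each base once, in the order variable exons, constant exons, pseudogenes, 1 kb promoters, other exons, and the rest. Genome-wide tiles of 2 kb, exons and promoters with at least 20 reads and 5 CpGs in every library were tested with edgeR 4.0.16 in R 4.3.3 (glmQLFit with a common dispersion from at most 20000 regions, a coefficient per library) and adjusted by Benjamini-Hochberg, threshold 0.05. Summed levels were compared by two-sided exact permutation. The fit was tested on simulated data. limma 3.58.1 on log2((C + 1)/(T + 1)), other thresholds, tile and promoter sizes, single strands, unique CpGs, the replicate number as a block and leaving out each library were alternatives. edgeR's bias-adjusted deviances, and the alternatives for the PCDHA and PCDHB exons, PCDHB16, the PCDHG types and tiles named for their place, were alternatives chosen after seeing the data.

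Named were all PCDHG genes and pseudogenes, other genes in the window, the 3 tiles with the largest difference each way with at least 10 CpGs, and called members of PCDHA, PCDHB and the listed genes. Other tiles, and the element's motif, were named after their values were seen. The window, members and gene lists were chosen with earlier results of these data known. Intervals and limits from counts (3 counts for a count of 0) cover counting error only, since PCR duplicates cannot be recognised in these counts. Limits over several CpGs also take each count as a separate read, so they are too low where a read covers several of them.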

Additional observations from a re-analysis of the deposited data

How the results depend on the processing

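The differences of the window, the variable exons and the promoters kept their direction under every alternative run. Leaving out each library in turn gave 8.05 to 14.3 points for the window, 4.27 to 11.6 for the variable exons and 2.68 to 11.3 for the promoters, in each case lowest without ZNF274KO 1. The constant exons had no stable direction. Their difference was -0.18 points with at least 3 reads per CpG, -1.22 as an unweighted mean of CpGs, 4.59 on the Watson strand, -2.92 on the Crick strand and -2.37 to 3.09 without 1 library. Variable exons minus promoters gave -2.13 on the Watson strand, 3.98 on the Crick strand, 2.66 on unique CpGs, 3.54 with promoters of 500 bases, -1.83 with 2 kb and -0.54 to 2.42 without 1 library. The causes were not tested.

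Of the 36 tiles called, limma kept 7. With 5 kb tiles 16 of 50 and with 10 kb tiles 9 of 25 were called, and without 1 library 20 to 41 tiles of 2 kb, lowest without ZNF274KO 1, whose 20 were all among the 36. A replicate block in the edgeR fit gave 43 tiles, 1 variable exon (PCDHGC5, edgeR adjusted p = 0.016) and 1 promoter (PCDHGA4, 0.022). The numbers did not pair the libraries (correlation of WT 1 minus WT 2 with ZNF274KO 1 minus ZNF274KO 2 over all tiles, -0.07), and in this balanced design the block leaves a summed difference the same by construction (window 11.2 points). With 2 kb promoters 1 was called, where 53 of 19371 were called higher over the genome and 7 lower. No exon was called without 1 library. Genome-wide, limma called 1289 tiles of 2 kb higher, and the fit with the block called 7756 tiles, 220 exons and 34 promoters higher. With 5 kb tiles edgeR called 2668 of 563514 higher over the genome and 72 lower. With 10 kb tiles it called 1398 of 282601 higher and 26 lower. Over all tiles of 2 kb the number called higher also varied between fits without 1 library, and was lowest without ZNF274KO 1. The window's counts from those fits therefore do not measure a change of the window alone. Differences near 0 changed sign without 1 library, with ranges of -0.17 to 2.84 points for the PCDHGB7 exon, -1.36 to 5.60 for PCDHGA11 and -0.55 to 3.37 for constant exon 3, and for promoters -8.62 to 7.92 in PCDHGC3, -1.59 to 4.0 in PCDHGA6, -3.75 to 7.90 in PCDHGA8 -1.40 to 0.047 in PCDHGC4 and -3.54 to 7.94 for the summed PCDHGC promoters. The read minimums, limma, the block and the other deviances change the test of a single exon, promoter or tile and not its difference in level, and single members were not recomputed on 1 strand, on unique CpGs or at other sizes. In fits without 1 library the single library left in a group is taken to vary as the libraries of the other group do.

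A median of 8 to 10 reads per CpG and 2 libraries per group limit these comparisons. The 21 promoters tested had 37 to 275 reads per library.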
